A study of Mus musculus with 60 samples.

Results

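A set of 6 homeobox genes of the Nkx2 and Nkx6 families was followed through the embryonic mouse brain, namely Nkx2-1, Nkx2-4, Nkx2-2, Nkx2-9, Nkx6-1 and Nkx6-2. Each was taken by its symbol from the deposited table, where each had 1 row, so that the set holds 6 of 24378 listed features. The table covers bulk RNA sequencing of TH-GFP mouse embryos, which carry a green fluorescent reporter of tyrosine hydroxylase, the enzyme that marks dopaminergic cells. Every group, controls included, carried that transgene. The 20 groups combine 5 regions (ventral forebrain, ventral hindbrain, ventral midbrain, alar plate and dorsal midbrain) with 4 stages (E11.5, E12.5, E13.5, E14.5), and each holds 3 libraries. The pieces were cut by hand under a fluorescence stereomicroscope, and those of the ventral midbrain took in midbrain domains M3 to M7 of the floor plate and the basal plate. Nothing in the labels ties the libraries of a group to different embryos. A p-value here measures the spread between libraries of the same group, pooled over all groups of a fit, and that spread may be technical. In bulk tissue, fewer cells of a type and less RNA per cell cannot be told apart.

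The Nkx2 and Nkx6 genes encode DNA-binding homeodomain proteins, most of them repressors, that divide the ventral neural tube into progenitor domains. Sonic hedgehog, secreted by the floor plate, switches on several of them at different distances from the midline, and they in turn shut off more dorsal factors such as Pax and Dbx proteins. Nkx2-1 is the family member of the hypothalamus and the ventral telencephalon, while Nkx2-2 marks a band beside the floor plate along most of the neural tube, and Nkx6-1 covers a wider ventral territory that includes the progenitors of motor neurons and, in the midbrain, the red nucleus. Nkx2-9 is a close relative of Nkx2-2 in the same ventral band, and Nkx6-2 is a close relative of Nkx6-1.

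The Nkx2 members lie in 2 linked pairs in the mm10 build (GENCODE vM21 positions). Nkx2-1 (chr12:56531958-56536908) and Nkx2-9 (chr12:56611389-56613284) lie 74.5 kb apart, and Nkx2-4 (chr2:147083316-147085445) and Nkx2-2 (chr2:147177546-147194243) lie 92.1 kb apart, all on the minus strand. Nkx6-1 (chr5:101658139-101664996) and Nkx6-2 (chr7:139579376-139582797), also on the minus strand, are alone on their chromosomes among the members. The 2 pairs whose levels moved together, Nkx2-1 with Nkx2-4 and Nkx6-1 with Nkx6-2, are therefore not the linked ones. Their promoters are printed to show how far these pairs resemble each other in sequence: 300 bases per gene on the minus strand of GRCm38.p6, from 250 before to 50 after the start that RefSeq gives, with each CpG in capitals.
Nkx2-1 (chr12:56536859-56537158): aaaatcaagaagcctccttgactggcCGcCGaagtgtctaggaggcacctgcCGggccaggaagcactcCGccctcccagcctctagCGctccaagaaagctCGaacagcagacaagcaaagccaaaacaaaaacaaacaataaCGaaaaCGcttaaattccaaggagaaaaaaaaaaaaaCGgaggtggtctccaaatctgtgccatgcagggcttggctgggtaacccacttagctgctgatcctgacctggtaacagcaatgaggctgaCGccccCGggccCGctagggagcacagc
Nkx2-4 (chr2:147085296-147085595): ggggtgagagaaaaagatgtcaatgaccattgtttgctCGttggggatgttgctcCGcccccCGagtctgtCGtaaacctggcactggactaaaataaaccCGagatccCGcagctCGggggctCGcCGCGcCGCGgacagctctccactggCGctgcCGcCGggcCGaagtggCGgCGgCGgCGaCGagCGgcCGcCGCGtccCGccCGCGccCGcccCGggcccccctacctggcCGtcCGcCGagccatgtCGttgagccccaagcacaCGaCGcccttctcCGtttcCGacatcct
Nkx6-1 (chr5:101664662-101664961): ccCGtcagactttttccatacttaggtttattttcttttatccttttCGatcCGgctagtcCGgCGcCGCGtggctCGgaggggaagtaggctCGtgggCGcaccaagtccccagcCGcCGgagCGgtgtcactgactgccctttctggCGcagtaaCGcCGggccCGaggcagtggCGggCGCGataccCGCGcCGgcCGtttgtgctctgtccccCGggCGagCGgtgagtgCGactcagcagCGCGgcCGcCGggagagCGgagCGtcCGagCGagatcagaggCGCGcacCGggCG
Nkx6-2 (chr7:139582748-139583047): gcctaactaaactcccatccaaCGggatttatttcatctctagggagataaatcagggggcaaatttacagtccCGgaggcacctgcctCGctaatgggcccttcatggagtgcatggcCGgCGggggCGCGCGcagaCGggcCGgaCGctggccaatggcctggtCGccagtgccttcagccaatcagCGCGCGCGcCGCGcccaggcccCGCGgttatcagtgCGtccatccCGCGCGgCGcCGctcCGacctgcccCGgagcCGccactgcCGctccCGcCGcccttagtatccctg

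All 6 members were found among the 32851 RefSeq promoters of that table. The Nkx2-4 promoter holds 38 CpGs, that of Nkx6-1 holds 40 and that of Nkx6-2 holds 32, against 12 for Nkx2-1, 17 for Nkx2-2, 15 for Nkx2-9 and a median of 7 over all promoters. The promoters of Nkx2-1 and Nkx2-4 therefore differ in base composition, with 53.7% and 68.3% G or C, while those of Nkx6-1 and Nkx6-2 are alike at 67.3% and 66.7%. The longest identical run was 10 bases for Nkx2-1 with Nkx2-4 and 11 bases for Nkx6-1 with Nkx6-2, within the 9 to 13 bases found over all 15 pairs of members. A set of 6 short motifs was searched on both strands. The letters TGGGTGGTC of a GLI site (in 0.253% of all promoters), TGTTTAC of a FOXA site (3.65%), TAATTA of a homeodomain core (5.29%) and TATAAA of a TATA box (13.6%) were in none of the 6 windows. The NK2 letters CACTTGA (3.06% of promoters) stood 197 bases before the start of Nkx2-2, and CCAAT (37.4%) stood 97 and 69 bases before the start of Nkx6-2.

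Levels are RPKM, reads per kilobase of transcript per 1e+06 reads assigned to the listed features, so they can be compared between genes as levels per length. Assigned reads per library ran between 1580061 and 6431836 at E11.5, 8671033 and 13098974 at E12.5, 4973179 and 23581725 at E13.5, and 979197 and 6130311 at E14.5. A gene with 0 reads could have had up to 3, which is 0.466 to 1.9 RPM at E11.5 and 0.489 to 3.06 at E14.5, against 0.127 to 0.603 at E13.5. Over all features other than the members, 15 of the 60 libraries resembled the mean of another region more than their own group: 7 at E11.5, 5 at E12.5, 0 at E13.5 and 3 at E14.5. They include all alar plate libraries at E11.5 and E12.5. At E11.5 they also include ventral forebrain replicates 2 and 4, ventral hindbrain replicate 2 and ventral midbrain replicate 4. At E12.5 the others are ventral forebrain replicate 1 and dorsal midbrain replicate 3, and at E14.5 they are alar plate replicates 2 and 3 and dorsal midbrain replicate 2. Region values at E13.5 rest on no such library, and the tests at the other stages were also run without them. Sums of 5 detected blood markers ran between 1936 and 20821 RPKM in the libraries of E11.5, against at most 1940.2 RPKM at the later stages, and their part in the results was not tested.

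**Figure D1:**
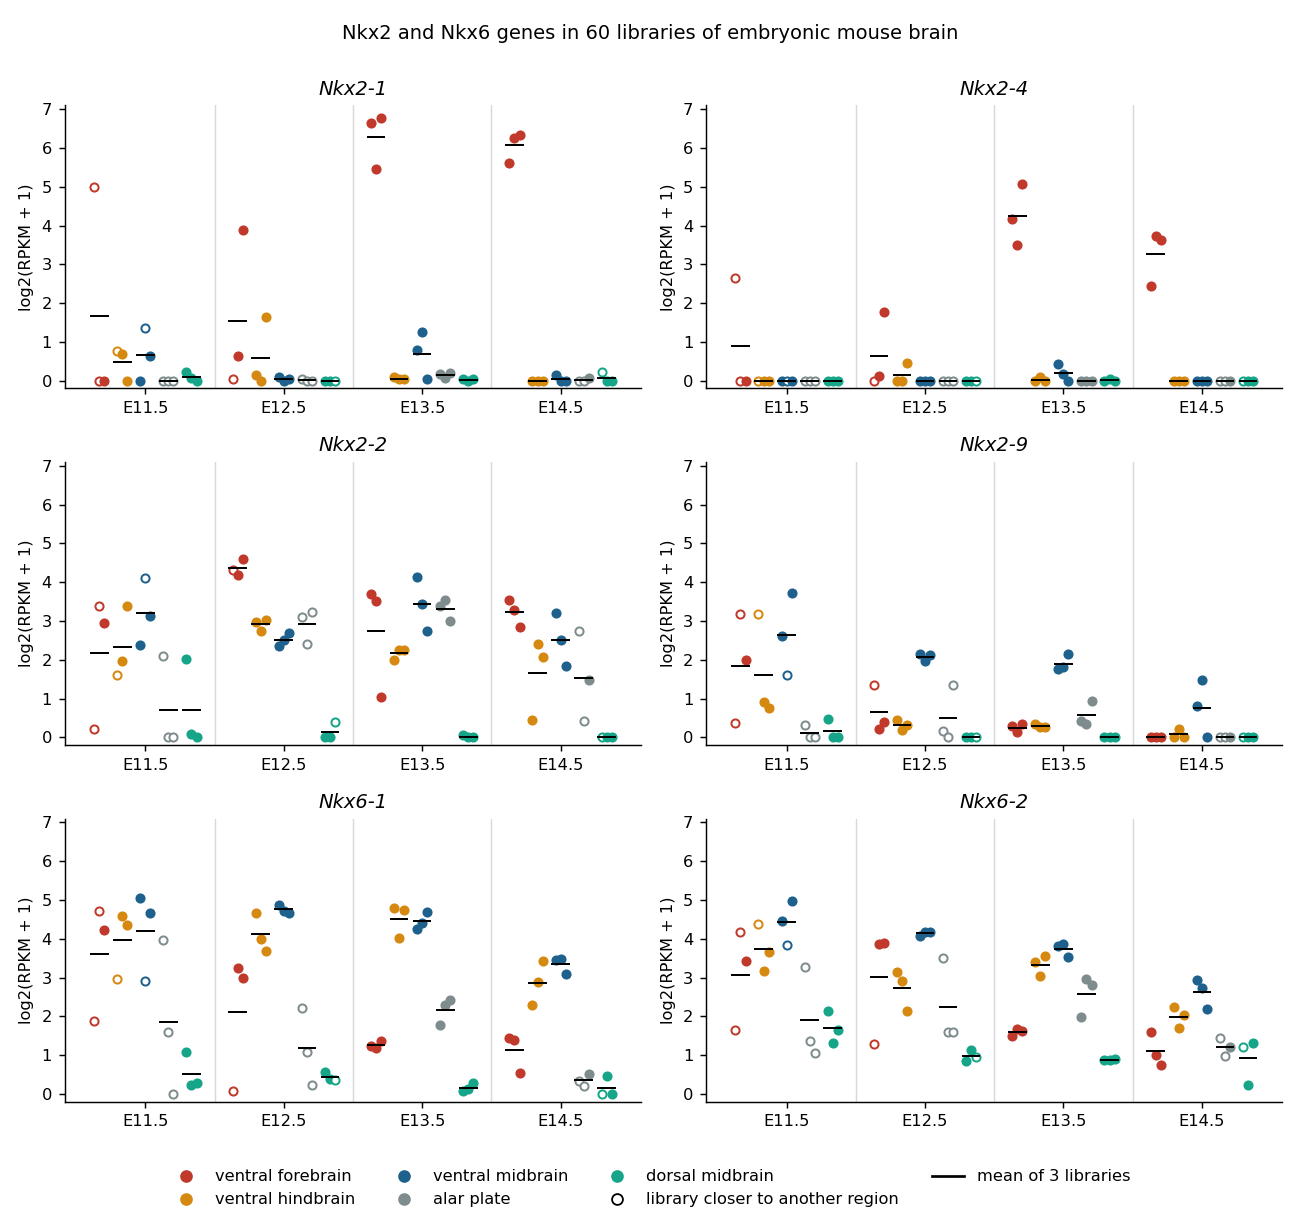
Level of each member, as log2(RPKM + 1), in every library of 5 regions and 4 stages (points, 3 per group; black bar, mean of the 3; open points, libraries that resemble another region more than their own group). Nkx2-1 and Nkx2-4 are high in the ventral forebrain libraries of E13.5 and E14.5 and near 0 in most others, Nkx2-9 is highest in the ventral midbrain from E12.5, and Nkx6-1 and Nkx6-2 are high in the ventral midbrain and hindbrain.

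Nkx2-1 had the highest level of any member. In the ventral forebrain it had 30.8, 0 and 0 RPKM at E11.5 (replicates 2, 4 and 6), 0.0357, 0.561 and 13.9 RPKM at E12.5 (replicates 1, 2 and 3), 99.7, 42.8 and 109.5 RPKM at E13.5 (replicates 4, 5 and 6), and 48.3, 76.1 and 80.5 RPKM at E14.5 (replicates 2, 3 and 4). All 6 libraries of the later stages were high, and of the 6 earlier ones only E11.5 replicate 2 and E12.5 replicate 3 passed 1 RPKM. Outside the ventral forebrain the highest value was 2.1 RPKM, in ventral hindbrain replicate 3 at E12.5, and 3 of those 48 libraries reached 1 RPKM. At E13.5 the 3 ventral midbrain libraries had 0.746, 1.39 and 0.033 RPKM, or 11, 58 and 1 reads. The ventral forebrain did not overlap with any other region at E13.5 or E14.5, and overlapped with all of them at E11.5 and with the ventral hindbrain and midbrain at E12.5. The other regions overlapped with their neighbours in rank at every stage.

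Nkx2-4, the nearest relative of Nkx2-1, followed the same libraries at a lower level. In the ventral forebrain it had 5.32, 0 and 0 RPKM at E11.5, 0, 0.0952 and 2.44 RPKM at E12.5, 16.9, 10.4 and 32.5 RPKM at E13.5, and 4.47, 12.3 and 11.4 RPKM at E14.5. The highest value in any other region was 0.362 RPKM, or 5 reads, again in ventral hindbrain replicate 3 at E12.5. Of the 60 libraries, 46 held no Nkx2-4 read and 8 reached 1 RPKM. Those 8 were all ventral forebrain libraries, and each of them also passed 1 RPKM of Nkx2-1. At E14.5 the reads summed over the group were 104 in the ventral forebrain, against 0 in the ventral midbrain and 0 in the ventral hindbrain. With a floor of 3 reads over the group, Nkx2-4 was at least 21.9-fold higher in the ventral forebrain than in the ventral midbrain, and at least 44.6-fold higher than in the ventral hindbrain. By the same floor Nkx2-1, with 1967 reads against 0, was at least 844-fold higher in the ventral forebrain than in the ventral hindbrain at E14.5. These bounds cover counting error only.

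The ventral forebrain libraries split by position markers as well as by member. At E11.5, replicate 2 had 0.58 RPKM of En1 and 2.45 RPKM of En2, midbrain and anterior hindbrain factors, while replicates 4 and 6 had 18.2 and 19.6 RPKM of En1 and 41.8 and 39.9 RPKM of En2. The library with Nkx2-1 was thus the one with little En1 and En2. Nkx6-1 went the other way, with 2.66 RPKM in replicate 2, against 25.3 and 17.7 RPKM in replicates 4 and 6. At E12.5, replicate 1 had 0.0559 RPKM of Nkx6-1 and 0.14 RPKM of Foxa2, a floor plate factor, while replicates 2 and 3 had 8.49 and 6.9 RPKM of Nkx6-1 and 16.9 and 21.5 RPKM of Foxa2. Nkx2-1 did not oppose them there, with 0.0357, 0.561 and 13.9 RPKM in replicates 1, 2 and 3. Its highest library, replicate 3, also had the most Foxa2. In the 6 libraries of E13.5 and E14.5, with 42.8 to 109.5 RPKM of Nkx2-1, Nkx6-1 lay between 0.453 and 1.69 RPKM and Foxa2 between 0.37 and 1.4 RPKM. Rax and Six6, factors of the hypothalamic and eye field, were at 0 in all 3 ventral forebrain libraries of E12.5. Rax had 6.51, 0.21 and 2.06 RPKM at E13.5 and 3.17, 15 and 11.6 RPKM at E14.5, and Six6 had 5.94, 1.71 and 0.03 RPKM at E13.5 and 17.7, 18.9 and 2.54 RPKM at E14.5. The part that the position of the cut had in the member levels was not tested.

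**Figure D2:**
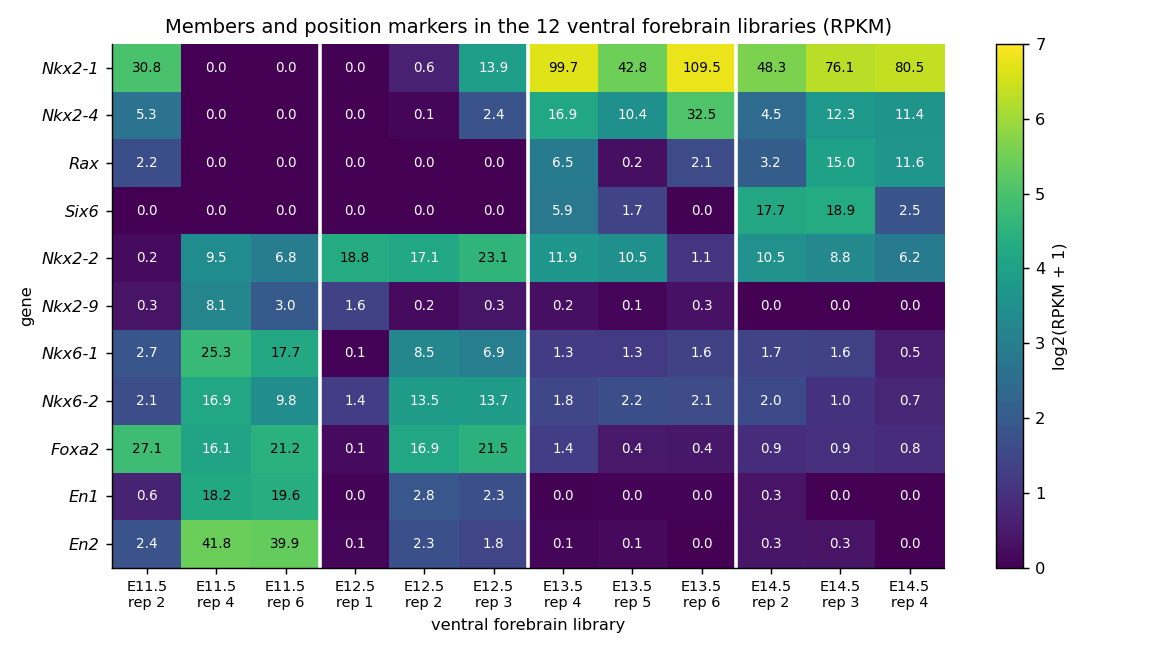
RPKM of the 6 members and of 5 position markers (Rax, Six6, Foxa2, En1, En2) in the 12 ventral forebrain libraries, with stage and replicate number along the bottom and colour on the log2(RPKM + 1) scale. Nkx2-1 is at 42.8 RPKM or more in the 6 libraries of E13.5 and E14.5, where Nkx6-1 is at 1.69 RPKM or less.

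Nkx2-2 was present in the alar plate as well as in the 3 ventral regions, and near 0 in the dorsal midbrain from E12.5. At E12.5 it had 18.8, 17.1 and 23.1 RPKM in the ventral forebrain, 6.86, 5.72 and 7.18 RPKM in the ventral hindbrain, 4.07, 4.74 and 5.46 RPKM in the ventral midbrain, 7.58, 4.34 and 8.4 RPKM in the alar plate, and 0, 0 and 0.318 RPKM in the dorsal midbrain. The ventral forebrain lay above every other library of that stage, and the alar plate overlapped with the ventral hindbrain. At E13.5 it had 11.9, 10.5 and 1.06 RPKM in the ventral forebrain, 3.01, 3.74 and 3.78 RPKM in the ventral hindbrain, 16.5, 9.9 and 5.73 RPKM in the ventral midbrain, 9.48, 10.6 and 6.94 RPKM in the alar plate, and 0.0358, 0 and 0 RPKM in the dorsal midbrain. There the alar plate overlapped with the ventral midbrain and the ventral forebrain, and only the dorsal midbrain lay below every other library. In those alar plate libraries Shh, the ligand itself, had 0.0908 to 2.24 RPKM at E12.5 and E13.5. Lhx2, a forebrain and alar factor, had 53.8 to 148.6 RPKM in them. Foxa2 had at most 0.0752 RPKM in them at E12.5, and 4.72, 1.56 and 3.45 RPKM at E13.5. The sum of 4 floor plate and ventral markers was 20.7 to 24.7 RPKM in the alar plate at E13.5. It was 1.52 to 4.25 RPKM in the dorsal midbrain and 315 to 435.9 RPKM in the ventral midbrain.

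At E11.5 Nkx2-2 varied within regions, with 0.152, 9.53 and 6.75 RPKM in the ventral forebrain, 2.05, 2.95 and 9.48 RPKM in the ventral hindbrain, and 4.17, 16.3 and 7.69 RPKM in the ventral midbrain. The alar plate had 3.26, 0 and 0 RPKM and the dorsal midbrain 3.06, 0.061 and 0 RPKM, so that all neighbours in rank overlapped. At E14.5 it had 10.5, 8.82 and 6.2 RPKM in the ventral forebrain, 0.364, 4.32 and 3.22 RPKM in the ventral hindbrain, 8.18, 4.73 and 2.59 RPKM in the ventral midbrain, and 5.65, 0.329 and 1.79 RPKM in the alar plate. The dorsal midbrain was listed at 0 in all 3 libraries and lay below the rest. The antisense gene Nkx2-2os shares 278 exonic bases with Nkx2-2 on the opposite strand. It reached 3.66 RPKM, in ventral forebrain replicate 3 at E12.5, and since the strand used in counting is not given, reads of that overlap cannot be told apart.

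Nkx2-9 had the lowest range among the members found in the midbrain and hindbrain. At E12.5 it had 1.56, 0.164 and 0.317 RPKM in the ventral forebrain, 0.364, 0.131 and 0.249 RPKM in the ventral hindbrain, and 3.4, 2.88 and 3.35 RPKM in the ventral midbrain. At E13.5 it had 0.216, 0.0928 and 0.26 RPKM in the ventral forebrain, 0.272, 0.211 and 0.207 RPKM in the ventral hindbrain, and 2.37, 2.51 and 3.4 RPKM in the ventral midbrain. At both stages the ventral midbrain lay above every other library, the alar plate reached at most 1.52 RPKM, and the dorsal midbrain was listed at 0. At E11.5 its values spread widely, with 0.286, 8.09 and 2.95 RPKM in the ventral forebrain, 8, 0.874 and 0.703 RPKM in the ventral hindbrain, and 5.11, 2.06 and 12.2 RPKM in the ventral midbrain. At E14.5 it had 0.744, 1.78 and 0 RPKM in the ventral midbrain, which is 3, 3 and 0 reads, and 1 read in all the other 12 libraries together. The gene did not pass the filter at E14.5 and was not tested there.

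Nkx6-1 was high in the ventral midbrain and hindbrain and low in the dorsal midbrain. At E12.5 it had 0.0559, 8.49 and 6.9 RPKM in the ventral forebrain, 24.6, 14.9 and 11.9 RPKM in the ventral hindbrain, and 28.5, 25.3 and 24.5 RPKM in the ventral midbrain. At E13.5 it had 1.34, 1.26 and 1.55 RPKM in the ventral forebrain, 26.7, 15.2 and 25.8 RPKM in the ventral hindbrain, and 17.9, 20.2 and 24.8 RPKM in the ventral midbrain. Hindbrain and midbrain overlapped at both stages and lay above every ventral forebrain library. At E14.5 it had 1.69, 1.62 and 0.453 RPKM in the ventral forebrain, 3.91, 6.41 and 9.74 RPKM in the ventral hindbrain, and 9.94, 10.2 and 7.6 RPKM in the ventral midbrain. The alar plate had 3.67, 1.1 and 0.164 RPKM at E12.5, 2.45, 3.92 and 4.4 RPKM at E13.5, and 0.262, 0.147 and 0.43 RPKM at E14.5, and the dorsal midbrain never passed 0.474 RPKM at these stages. At E13.5 the alar plate lay above the ventral forebrain, and at E14.5 below it. At E11.5 the ventral hindbrain had 6.83, 23 and 19.5 RPKM, the ventral midbrain 32.2, 6.54 and 24.2 RPKM, the alar plate 14.6, 2 and 0 RPKM and the dorsal midbrain 1.1, 0.164 and 0.204 RPKM. The 3 lowest ventral libraries of that stage, ventral forebrain replicate 2, ventral hindbrain replicate 2 and ventral midbrain replicate 4, and the highest alar plate library, replicate 2, all resemble another region more than their own.

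Nkx6-2 was the one member with reads in all 60 libraries. At E13.5 it had 1.8, 2.2 and 2.05 RPKM in the ventral forebrain, 9.48, 7.25 and 10.8 RPKM in the ventral hindbrain, 13.1, 13.7 and 10.6 RPKM in the ventral midbrain, 2.98, 6.73 and 6.05 RPKM in the alar plate, and 0.819, 0.845 and 0.864 RPKM in the dorsal midbrain. Hindbrain and midbrain overlapped and lay above the alar plate, which lay above the ventral forebrain, and the dorsal midbrain was lowest. At E12.5 it had 1.42, 13.48 and 13.7 RPKM in the ventral forebrain, 7.82, 6.46 and 3.36 RPKM in the ventral hindbrain, 15.7, 17.1 and 17.1 RPKM in the ventral midbrain, and 10.3, 2.04 and 2.01 RPKM in the alar plate. At that stage the ventral midbrain lay above every other library. At E14.5 it had 2, 1.02 and 0.685 RPKM in the ventral forebrain, 3.7, 2.24 and 3.07 RPKM in the ventral hindbrain, and 6.7, 5.61 and 3.59 RPKM in the ventral midbrain, while no alar plate or dorsal midbrain library passed 1.73 RPKM. At E11.5 it had 2.12, 16.9 and 9.77 RPKM in the ventral forebrain, 19.7, 7.97 and 11.7 RPKM in the ventral hindbrain, 21.2, 13.4 and 30.5 RPKM in the ventral midbrain, 8.74, 1.58 and 1.08 RPKM in the alar plate, and 3.37, 1.47 and 2.12 RPKM in the dorsal midbrain, and every region overlapped with its neighbour in rank.

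The first set of comparisons asked how far the members marked the ventral side, by setting the mean of the 3 ventral regions against the mean of the alar plate and the dorsal midbrain at each stage. Differences are in log2(RPKM + 1) ± standard error from limma's moderated test over every feature whose mean reached 1 RPKM in some group. They understate the change of genes with low values. Calls needed a difference of at least 1 and a p below 0.05 after Benjamini-Hochberg adjustment across the features tested. At E13.5, where 2.14% of 13851 features were called higher and 1.23% lower, 5 of 6 members were higher in the ventral regions and 0 were lower. Nkx2-1 was higher by 2.27 ± 0.20 (adjusted p = 1.99e-06), Nkx6-1 by 2.24 ± 0.13 (5.63e-08), Nkx2-4 by 1.48 ± 0.17 (2.08e-05), Nkx6-2 by 1.15 ± 0.13 (1.58e-05) and Nkx2-2 by 1.13 ± 0.34 (0.0147). Mean Nkx2-1 was 84.0 RPKM in the ventral forebrain, 0.72 in the ventral midbrain, 0.04 in the ventral hindbrain and 0.11 in the alar plate. Mean Nkx2-4 was 19.9, 0.16 and 0.02 RPKM in those ventral regions. Both calls rest on the ventral forebrain, the only group through which these genes passed the filter. Mean Nkx2-2 was 9.01 RPKM in the alar plate, above the ventral forebrain (7.82) and hindbrain (3.51), so its call rests on the dorsal midbrain (0.012). The Nkx2-2 difference fell under the threshold of 1, to 0.97 without ventral forebrain replicate 4 and to 0.997 without replicate 5. Nkx2-9 had a difference of 0.53 ± 0.10 (adjusted p = 0.000803), short of the size threshold, which it passed at 1.44 (0.00053) when the pseudocount was 0.1 RPKM. It passed the filter only through the ventral midbrain, so the filter itself favoured a higher ventral value.

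At E12.5, where 2.79% of 13733 features were called higher and 2.29% lower, 3 of the 5 members tested were higher and 0 lower. Nkx6-1 was higher by 2.85 ± 0.44 (adjusted p = 0.00054), Nkx2-2 by 1.74 ± 0.13 (3.13e-06) and Nkx6-2 by 1.68 ± 0.40 (0.00612). Mean Nkx2-2 in the alar plate, 6.77 RPKM, lay above that of the ventral hindbrain (6.58) and the ventral midbrain (4.76). Nkx2-9 had 0.77 ± 0.21 (0.0114), and was called at 2.25 (0.0074) with a pseudocount of 0.1 RPKM and at 3.34 (0.00514) with limma-voom, a precision-weighted fit on the recovered reads. At this stage too it passed the filter only through the ventral midbrain, so the filter favoured that direction. Nkx2-1 had 0.72 ± 0.47 (0.233), and Nkx2-4 did not pass the filter. Without the libraries that resemble another region, which leaves the dorsal midbrain as the only dorsal group, the 3 members called higher had 3.52 (6.28e-07), 3.27 (9.86e-08) and 2.59 (3.72e-06). This setting was chosen after the data were seen. At E14.5, where 3.29% of 14013 features were called higher and 1.37% lower, 4 of 5 members tested were higher and 0 lower, with Nkx6-1 at 2.19 ± 0.19 (1.55e-06), Nkx2-1 at 1.99 ± 0.13 (1.22e-07), Nkx2-2 at 1.69 ± 0.35 (0.00205) and Nkx2-4 at 1.09 ± 0.18 (0.000329). The calls of Nkx2-1 and Nkx2-4 rest on the ventral forebrain at this stage too. Nkx6-2 had 0.85 ± 0.20 (0.00424), and was called at 1.30 (0.0132) with a pseudocount of 0.1 RPKM and at 1.33 (0.00834) with limma-voom. Without the 3 libraries that resemble another region these 5 values were 2.07 (0.000325), 2.01 (2.57e-05), 1.72 (0.00876), 1.09 (0.00865) and 0.92 (0.027).

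At E14.5 the description labels put the midbrain pieces under 1 name prefix and the other regions under another. Within the first, ventral against dorsal midbrain, Nkx6-1 was higher by 3.19 (5.09e-06), Nkx2-2 by 2.52 (0.00249) and Nkx6-2 by 1.71 (0.00071), while Nkx2-1 had -0.03 (0.932) and Nkx2-4 had 0 reads in both groups. Within the second, ventral forebrain and hindbrain against alar plate, Nkx2-1 was higher by 3.01 (1.08e-07), Nkx6-1 by 1.64 (0.00093) and Nkx2-4 by 1.64 (0.00053), while Nkx2-2 had 0.89 (0.317) and Nkx6-2 had 0.34 (0.528). The difference between these 2 comparisons was not tested, and their dorsal groups differ: Nkx2-2 had 5.65, 0.329 and 1.79 RPKM in the alar plate and 0 RPKM in all 3 libraries of the dorsal midbrain.

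At E11.5 the calls lay near the threshold. There 0.471% of 13802 features were called higher and 0.341% lower, and 3 of 6 members were higher and 0 lower: Nkx6-1 by 2.74 ± 0.61 (adjusted p = 0.0384), Nkx6-2 by 1.95 ± 0.42 (0.036) and Nkx2-9 by 1.91 ± 0.47 (0.0432). Nkx2-9 passed the filter only through ventral groups, so the direction of its difference followed from that filter. Nkx2-2 had 1.87 ± 0.57 (0.0643), Nkx2-1 had 0.89 ± 0.63 (0.372) and Nkx2-4 had 0.30 ± 0.34 (0.595). All 3 calls were lost, at adjusted p between 0.0641 and 0.115, when any of 10 libraries was left out: ventral hindbrain replicates 4 and 6, ventral forebrain replicate 4, alar plate replicates 4 and 6, ventral midbrain replicates 2 and 6, and dorsal midbrain replicates 2, 4 and 6. With 1 library left out, the differences stayed between 2.28 and 3.27 for Nkx6-1, 1.74 and 2.30 for Nkx6-2, and 1.65 and 2.15 for Nkx2-9. The Nkx2-9 call was also lost without ventral forebrain replicate 6 (0.0524). Nkx2-2 was called without ventral hindbrain replicate 2 (1.99, 0.0423), ventral forebrain replicate 2 (2.20, 0.0359) or alar plate replicate 2 (2.22, 0.0271). Without all libraries that resemble another region, the dorsal midbrain was the only dorsal group and 1 ventral forebrain library was left. In this setting, chosen after the data were seen, Nkx6-1 had a difference of 3.998, Nkx6-2 2.17, Nkx2-2 2.09 and Nkx2-9 1.84. The ventral libraries of E11.5 carry a different name prefix from those of the dorsal midbrain, so region and prefix cannot be told apart in these values. Against the alar plate alone, which shares its name prefix with the ventral pieces at that stage, the differences of these 4 lay between 1.85 and 2.08 with an adjusted p of 0.386 each.

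**Figure D3:**
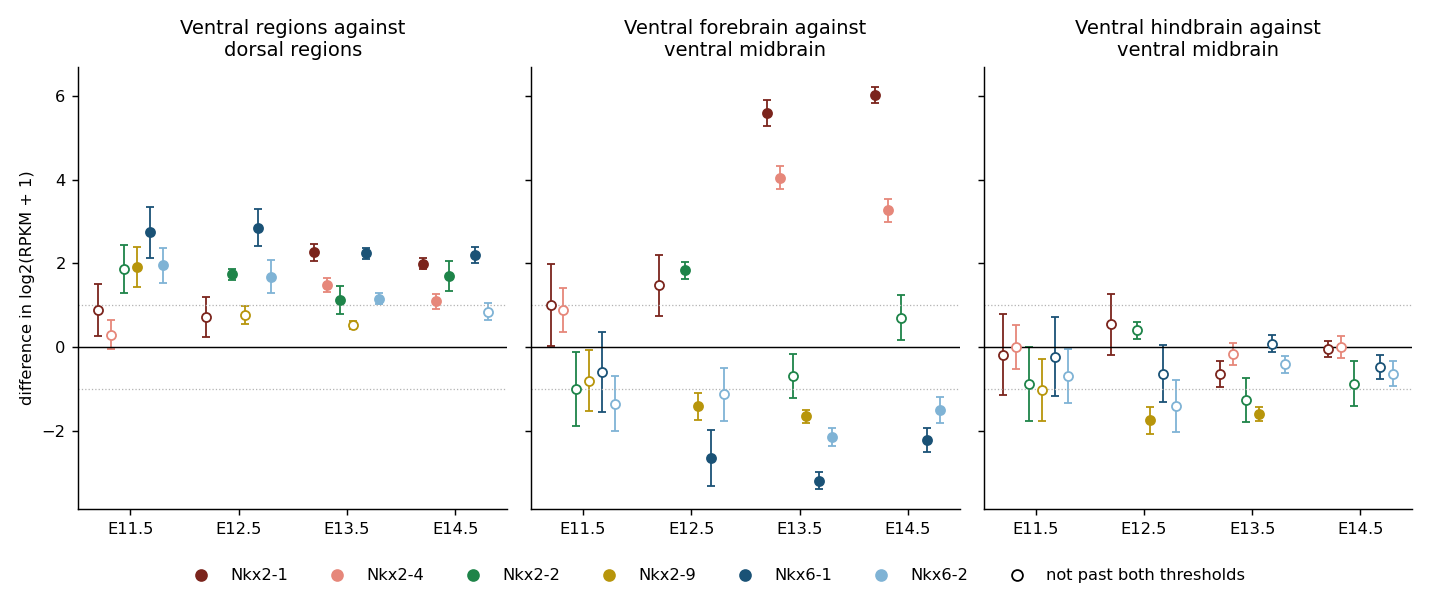
Difference in log2(RPKM + 1) ± standard error for each member at each stage, for ventral against dorsal regions, ventral forebrain against ventral midbrain and ventral hindbrain against ventral midbrain (15 libraries per stage; filled points pass both thresholds; dotted lines at 1 and -1). In the ventral forebrain Nkx2-1 and Nkx2-4 lie above 0 at E13.5 and E14.5 while Nkx6-1 and Nkx6-2 lie below it.

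The second set compared the ventral forebrain with the ventral midbrain, where the members parted in both directions. At E13.5, where 0.614% of features were called higher and 2.3% lower, 2 of 6 members were higher and 3 lower in the ventral forebrain. Nkx2-1 was higher by 5.60 ± 0.31 (adjusted p = 8.25e-08) and Nkx2-4 by 4.05 ± 0.27 (4.58e-07). Nkx6-1 was lower, at -3.19 ± 0.20 (2.69e-07), as were Nkx6-2 at -2.15 ± 0.20 (1.13e-05) and Nkx2-9 at -1.65 ± 0.16 (1.13e-05). Nkx2-2 did not pass, at -0.69 ± 0.53 (0.41). At E13.5 and E14.5 Nkx2-1 and Nkx2-4 passed the filter on low values only through the ventral forebrain. Nkx2-9 passed it at E12.5 and E13.5 only through the ventral midbrain. The directions of these differences followed from that filter. Each of these 5 calls held in all 15 fits that left out 1 library. In these groups, ventral forebrain replicate 4 had 93 RPKM summed over 6 mesenchyme markers and ventral midbrain replicate 4 had 340.7 RPKM, against at most 6.87 RPKM in the other 7 ventral libraries. In the forebrain library Nkx2-1, Nkx2-4, Nkx6-1 and Nkx2-9 lay between those of the other 2 replicates and Nkx6-2 was the lowest of the 3, and in the midbrain library Nkx6-1 and Nkx2-9 were the lowest of the 3. Without ventral forebrain replicate 4 or ventral midbrain replicate 4 all 5 calls held.

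At E14.5, where 1.55% of features were higher and 1.82% lower, Nkx2-1 was higher by 6.03 ± 0.20 (2.53e-10) and Nkx2-4 by 3.27 ± 0.27 (2.62e-06). Nkx6-1 was lower, at -2.23 ± 0.29 (0.000259), as was Nkx6-2 at -1.51 ± 0.31 (0.00763), and Nkx2-2 had 0.70 ± 0.55 (0.441). At that stage the 2 regions carry different name prefixes, so region and prefix cannot be told apart. Summed mesenchyme markers were 22.1, 151.3 and 65.7 RPKM in the ventral forebrain, against 4.61, 7.39 and 5.8 RPKM in the ventral midbrain, with all 6 markers detected in each forebrain library, and their part was not tested. Of 5 pituitary markers, all were at 0 in 2 of the 3 ventral forebrain libraries and their sum reached 8.46 RPKM in replicate 3. That library had 76.1 RPKM of Nkx2-1, between the 48.3 and 80.5 RPKM of the other replicates.

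At E12.5, where 0.677% of features were higher and 2.9% lower, 1 of 5 members tested was higher and 2 were lower. Nkx2-2 was higher by 1.84 ± 0.20 (adjusted p = 8.23e-05), Nkx6-1 was lower at -2.65 ± 0.68 (0.0257) and Nkx2-9 was lower at -1.41 ± 0.32 (0.0141). Nkx2-1 had 1.48 ± 0.73 (0.291) and Nkx6-2 had -1.14 ± 0.62 (0.359). The Nkx6-1 call was lost without ventral midbrain replicate 1, 2 or 3 (0.0915, 0.0752 and 0.0768), and the Nkx2-9 call without ventral midbrain replicate 1 or 3 (0.0578 and 0.0559) or ventral forebrain replicate 2 or 3 (0.0711 and 0.0577). Without the libraries that resemble another region, ventral forebrain replicate 1 among them, Nkx6-1 had -1.64 (0.000716), Nkx2-9 had -1.76 (1.57e-05) and Nkx2-2 had 1.86 (2.51e-05). At E11.5 no feature was called by limma, with 765 at an unadjusted p below 0.05, and 0 were called by limma-voom on recovered reads. The members lay between -1.35 ± 0.65 for Nkx6-2 (adjusted p = 0.728) and 1 ± 0.98 for Nkx2-1 (0.767).

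The third set compared the ventral hindbrain with the ventral midbrain, where Nkx2-9 was the one member called. At E12.5 and E13.5 Nkx2-9 passed the filter only through the ventral midbrain, with means of 3.21 and 2.76 RPKM. The direction of its difference there followed from that filter. It was lower in the ventral hindbrain at E12.5 by -1.76 ± 0.32 (adjusted p = 0.0065) and at E13.5 by -1.60 ± 0.16 (3.25e-05), against 0.932% of features called higher and 1.34% lower at E12.5, and 0.744% higher and 1.15% lower at E13.5. Without the libraries that resemble another region it had -1.76 (7.17e-06) at E12.5 and, at E11.5, -2.33 (0.0225), against -1.04 ± 0.74 (1) with all libraries of E11.5. Nkx6-2 at E12.5 had -1.42 ± 0.62 (0.325), and -1.42 (0.00127) without those libraries. Nkx2-2 at E13.5 had -1.27 ± 0.53 (0.189), and was called lower at -1.27 (0.00991) without ventral forebrain replicate 6, a library that enters only the shared spread of that difference. Nkx6-1 did not pass at any stage, with differences between -0.64 ± 0.68 at E12.5 (0.842) and 0.07 ± 0.20 at E13.5 (0.88). At E14.5, where 0.321% of features were called higher and 0.5% lower, the 5 members tested lay between -0.87 ± 0.55 for Nkx2-2 (0.684) and 0, and at E11.5 no feature was called by limma, with 548 at an unadjusted p below 0.05, and 1 was called by limma-voom on recovered reads.

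The change with stage was taken between E14.5 and E12.5 in each ventral region, in 1 fit of 30 libraries. Every library of E12.5 has a different name prefix from those of E14.5, so stage and prefix cannot be told apart. In the ventral forebrain, where 1.9% of 14227 features were higher and 0.97% lower at E14.5, Nkx2-1 was higher by 4.55 ± 0.55 (adjusted p = 6.42e-06) and Nkx2-4 by 2.63 ± 0.31 (4.03e-06). Nkx2-4 passed the filter of this fit only through the ventral forebrain of E14.5, so its direction followed from the filter. Nkx6-2 was lower, at -1.89 ± 0.51 (0.0159), and this call was lost without E12.5 replicate 2 (0.104) or 3 (0.0915) or E14.5 replicate 3 (0.0541) or 4 (0.0604), where the difference stayed between -1.84 and -1.45, and with limma-voom (-2.63, 0.177). Nkx6-1 had -0.98 ± 0.54 (0.244), and was called lower at -1.995 (0.00252) without E12.5 replicate 1, the library with little Foxa2. Nkx2-2 had -1.13 ± 0.44 (0.0904), and passed without E14.5 ventral hindbrain replicate 2 (0.0459) or alar plate replicate 2 (0.0457), and with limma-voom (-1.41, 0.0192). Without all libraries that resemble another region Nkx2-1 had 3.81 (0.000393), Nkx2-4 2.31 (0.000409), Nkx6-1 -1.995 (0.000394) and Nkx6-2 -2.75 (2.43e-05). The markers Rax and Six6 rose with Nkx2-1 and Nkx2-4, by 3.24 ± 0.38 (3.07e-06) and 3.45 ± 0.37 (8.12e-07). Both markers were listed at 0 in the ventral forebrain at E12.5, so they could only rise. The summed 5 hindbrain markers were 0.18 to 0.27 RPKM in the ventral forebrain at E14.5, against 5.72 to 115.6 RPKM at E12.5, where they were 0.238 to 30.03 RPKM in the ventral hindbrain. The highest of these sums was in E12.5 ventral forebrain replicate 1, in which Hoxa2 and Hoxb2 were listed at 0. The part of these markers in the changes was not tested.

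In the ventral midbrain, where 1.68% of features were higher and 2.09% lower at E14.5, 0 of 6 members were higher and 2 lower. Nkx6-2 had -1.52 ± 0.51 (adjusted p = 0.0371) and Nkx2-9 had -1.31 ± 0.31 (0.00444), the second resting on 6 reads at E14.5, against 131 reads at E12.5. Nkx2-9 passed the filter of this fit only through the ventral midbrain of E12.5, so its direction followed from the filter. The Nkx6-2 call was lost without any of the 6 ventral midbrain libraries, at adjusted p between 0.056 and 0.121. The Nkx2-9 difference fell to -0.93, under the size threshold, without E14.5 replicate 4. Nkx6-1 had -1.41 ± 0.54 (0.0654), with 9.94, 10.2 and 7.6 RPKM at E14.5 that did not overlap with the 28.5, 25.3 and 24.5 RPKM at E12.5. It was called lower without ventral forebrain replicate 1 (0.00656) or 2 (0.0484) or alar plate replicate 1 (0.0494) or 3 (0.0416) of E12.5, libraries that enter only the shared spread. Without the libraries that resemble another region Nkx6-1 had an adjusted p of 0.00104, Nkx6-2 of 0.000683 and Nkx2-9 of 0.000536. Nkx2-2 had 0.0017 ± 0.44 (1).

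In the ventral hindbrain, where 0.675% of features were higher and 0.485% lower at E14.5, no member was called. Nkx2-2 had -1.27 ± 0.44 (adjusted p = 0.0779) and Nkx6-1 had -1.25 ± 0.54 (0.162). Nkx2-2 passed at -1.66 (0.0479) without E14.5 replicate 3, and at -1.27 without alar plate replicate 2 (0.0365) or 3 (0.0446) of E14.5. Nkx6-1 passed at -1.25 (0.0294) without ventral forebrain replicate 1 of E12.5. Without all libraries that resemble another region both passed, at 0.024 and 0.00482. The change in the ventral regions minus that in the dorsal regions was past the thresholds for 0 of 6 members, against 0.204% of features higher and 0.0843% lower. Nkx2-1 had 1.27 ± 0.50 (0.243) and Nkx2-4 had 0.83 ± 0.28 (0.169). Both passed without ventral forebrain replicate 3 of E12.5, at 1.67 (0.00104) and 1.02 (0.0125), the one library of that group with more than 1 RPKM of either gene. Nkx2-4 passed the filter of this fit only through the ventral forebrain of E14.5, and without that library so did Nkx2-1. The direction of these differences therefore followed from the filter. Between ventral regions the difference of the changes was also tested, a setting chosen after the data were seen. Nkx2-1 and Nkx2-4 changed more in the ventral forebrain than in the ventral midbrain (2.77% of features called) and than in the ventral hindbrain (1.03%), and no member was called between the ventral hindbrain and the ventral midbrain (0.0703%). For Nkx2-4 the direction of these differences between regions followed from the filter too.

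Genes of the Hedgehog pathway were read alongside as 14 genes, of which 13 were tested at E13.5. In the ventral against the dorsal regions at that stage, 3 were higher, 5 lower and the other 5 not called, with a median of -0.36, against -0.01 over all features. Over all features 2.14% were called higher and 1.23% lower. Shh was higher by 3.88 ± 0.15 (adjusted p = 1.56e-09). Gli3, the main repressor of the pathway's targets, was lower at -2.18 ± 0.17 (7.51e-07), as was Boc, a coreceptor, at -2.65 ± 0.22 (1.14e-06). The same counts, 3 higher and 5 lower of 14 tested, were found at E11.5, E12.5 and E14.5. Over all features 0.471%, 2.79% and 3.29% were called higher at these stages, and 0.341%, 2.29% and 1.37% lower. Between the ventral forebrain and the ventral midbrain at E13.5, Shh was lower at -1.56 ± 0.23 (0.00053) and Gli3 higher at 1.22 ± 0.27 (0.00785), and 11 of the 13 genes were not called. In that comparison 0.614% of all features were called higher and 2.3% lower.

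Of 11 domain partners and opposing progenitor factors, 10 were tested at E13.5, and 6 were higher and 3 lower in the ventral than in the dorsal regions, with a median of 1.64. Over all features 2.14% were called higher and 1.23% lower. Lmx1a (3.76 ± 0.15, adjusted p = 1.62e-09) and Lmx1b (3.48 ± 0.17, 9.31e-09), factors of the midbrain floor plate, were among the higher, as was Olig2 (2.01 ± 0.19, 2.93e-06), a factor of motor neuron progenitors. In the ventral forebrain against the ventral midbrain Foxa2 was lower at -5.15 ± 0.29 (8.25e-08), while Dbx1 (5.36 ± 0.46, 4.84e-06) and Olig2 (2.64 ± 0.29, 3.84e-05) were higher. Of 19 ventral forebrain and hypothalamic factors, 17 were tested in that comparison, and 8 were higher and 0 lower at E13.5, against 16 higher and 0 lower at E14.5. Over all features 0.614% were higher and 2.3% lower at E13.5, and 1.55% higher and 1.82% lower at E14.5. Lhx6, a factor of ventral telencephalic interneurons, had 2.71 ± 0.20 (1.28e-06) at E13.5, and Dlx1 had 5.69 ± 0.23 (2.28e-09) at E14.5. Between E14.5 and E12.5 in the ventral forebrain, 15 of 18 tested were higher and 0 lower, with a median of 3.18, beside the 4.55 of Nkx2-1 and the 2.63 of Nkx2-4. For that change 1.9% of all features were called higher and 0.97% lower. Of the 19, 14 passed the filter at E12.5, so some of the 18 entered this fit only through groups of E14.5. For any that passed only through the ventral forebrain of E14.5, the direction followed from the filter, here and against the ventral midbrain at E14.5. The counts without a lower gene are thus partly set by the filter.

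Over the 20 group means of log2(RPKM + 1), the pair with the most similar pattern was Nkx2-1 with Nkx2-4 (Pearson r = 0.976), followed by Nkx6-1 with Nkx6-2 (0.91) and Nkx2-9 with Nkx6-2 (0.86). These are descriptions over groups that share libraries and depth between genes. The first rests on the ventral forebrain groups of E13.5 and E14.5, which stand far above the other 18. The linked pairs were less alike, at -0.002 for Nkx2-1 with Nkx2-9 and 0.345 for Nkx2-4 with Nkx2-2. Among 10797 features with at least 5 RPKM in a group, the 3 nearest to Nkx2-1 were Nkx2-4, Bsx (0.905), a hypothalamic homeobox gene, and Lhx6 (0.895), and the 3 nearest to Nkx2-4 were Nkx2-1, Bsx (0.954) and Lhx6 (0.947). For Nkx2-2 they were Pdlim3 (0.89), Zfp663 (0.852) and Shc2 (0.822), and for Nkx2-9 Scube1 (0.892), Hey1 (0.871) and Nkx6-2. For Nkx6-1 they were Qsox1 (0.946), Spon1 (0.927), a secreted protein of the floor plate, and Kbtbd11 (0.924). For Nkx6-2 they were Nkx6-1, Scube1 (0.905) and Frmd4b (0.87). Foxa2 and Shh had an r of 0.872 and 0.865 with Nkx6-1, against -0.04 and 0.317 with Nkx2-1.

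**Figure D4:**
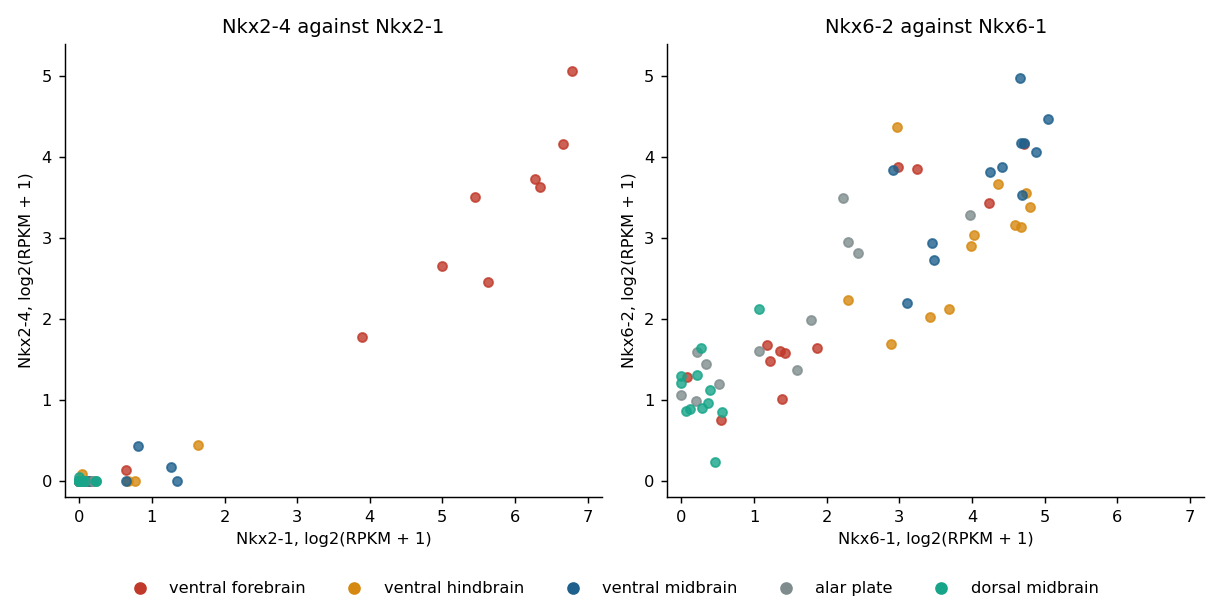
Level of Nkx2-4 against Nkx2-1 (left) and of Nkx6-2 against Nkx6-1 (right), each as log2(RPKM + 1), in 60 libraries coloured by region. The 8 libraries with at least 1 RPKM of Nkx2-4 are all from the ventral forebrain, and the ventral hindbrain and midbrain libraries lead the plot of the Nkx6 pair.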

How the data were processed

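Per the submitters' processing notes, reads were aligned with Bowtie to mm10; for the counter, annotation and strand the entry is: not given in the sources used here. The authors deposited RPKM values for 24378 features in 60 libraries. In each library the values gave whole reads (tolerance 0.01) for at least 99.992% of features, so read counts were recovered from the deposited RPKM for depths, floors and 1 alternative. Values were tested as log2(RPKM + 1) with limma 3.58.1 (trend, R 4.3.3) over all features with a group mean of at least 1 RPKM, adjusted by Benjamini-Hochberg; a call needs an adjusted p below 0.05 and an absolute difference of at least 1. Fits by stage hold all 15 libraries of the stage, and the stage fit holds the 30 of E12.5 and E14.5. Alternatives were a pseudocount of 0.1, no filter, median-of-ratios scaling, limma-voom with TMM scaling on recovered reads, a replicate block, each library left out and libraries that resemble another region left out. The fits were tested on counts simulated from the mean levels of E12.5 and E13.5. Those counts had 1 fixed spread and no library that resembled another region, so the test does not cover the uneven replicates seen here. All 6 members are named, with the leading genes of each list by adjusted p and the 3 features most like each member; a few genes that this rule names are not reported here. Members and lists were chosen with earlier results of these data known. Intervals and floors cover counting error only.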

Additional observations from a re-analysis of the deposited data

Results flagged for a closer look

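The change between E14.5 and E12.5 differed between regions for Nkx2-1 and Nkx2-4, by tests of the difference itself that were added after the data were seen (limma, adjusted over all features). The change in the ventral forebrain minus that in the ventral midbrain was 4.55 ± 0.78 for Nkx2-1 (adjusted p = 0.00128) and 2.63 ± 0.44 for Nkx2-4 (0.000964), with 2.77% of features past both thresholds. The change in the ventral forebrain minus that in the ventral hindbrain was 5.14 ± 0.78 for Nkx2-1 (0.000378) and 2.78 ± 0.44 for Nkx2-4 (0.000595), with 1.03% of features past them. All 3 ventral forebrain libraries of E14.5 lay above all 3 of E12.5 for both genes. Nkx2-4 passed the filter of this fit only through the ventral forebrain of E14.5, so its direction followed from the filter. Stage and name prefix cannot be told apart in these values.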

How the results depend on the processing

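Median-of-ratios scaling kept all 16 counts of features called and all 16 counts of members called within 1.5 times. The ventral against dorsal comparison at E11.5 (112 features, 3 members) gave 33 features without the filter, 11 with voom, 9 with the replicate block, 0 against the alar plate alone and 641 without the libraries that resemble another region (dorsal midbrain as the only dorsal group), with 0 members in each of the first 4. With a pseudocount of 0.1 RPKM and with voom, the same comparison had 1370 and 1446 features at E12.5 (against 697), 1005 and 1120 at E13.5 (against 468), and 1217 and 1373 at E14.5 (against 653). It had 1710 features at E12.5 without the libraries that resemble another region, and at E14.5 1618 within midbrain and 344 for forebrain and hindbrain against alar plate. Ventral forebrain against ventral midbrain gave 1365 features at E11.5 without those libraries (against 0), where 1 forebrain library is left and assumed to vary like the other groups, 1 member at E12.5 with a pseudocount of 0.1 (against 3), and 647 features at E13.5 with it (against 404). Ventral hindbrain against ventral midbrain gave 1 feature at E11.5 with voom and 264 features and 1 member without those libraries (against 0), and at E12.5 0 members with a pseudocount of 0.1 and 2 without those libraries (against 1). The ventral midbrain change had 844 features with a pseudocount of 0.1 (against 536), and 1 member with it, 1 without the filter and 0 with voom (against 2). The ventral hindbrain change had 291 features with voom (against 165) and 2 members without those libraries (against 0), and the ventral against dorsal change had 26 features without the filter and 18 with voom (against 41). The cause was not tested.

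Direction turned for 1 called difference, Nkx2-1 in ventral against dorsal at E14.5 when taken within midbrain (-0.026), and otherwise in uncalled ones: Nkx2-1 in ventral forebrain against midbrain at E11.5 with voom (-1.11), Nkx2-2 there without those libraries (0.21), Nkx2-1 and Nkx2-2 in the ventral midbrain change with a pseudocount of 0.1 (-0.048 and -0.021), Nkx2-4 in the ventral hindbrain change with voom (0.38), and in the ventral against dorsal change Nkx2-1 with voom (-0.15), Nkx2-2 with a pseudocount of 0.1 (0.32) and Nkx6-1 with that pseudocount (0.26) and with voom (0.063).

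Leaving out 1 library gave 0 to 361 features and 0 to 4 members for ventral against dorsal at E11.5, 0 to 1 and 0 to 15 features for ventral forebrain and hindbrain against midbrain at E11.5, 1 to 3 members for forebrain against midbrain at E12.5, 201 to 376 features for hindbrain against midbrain at E12.5, 1 to 2 members at E13.5 and 72 to 147 features at E14.5. For the changes with stage it gave 324 to 576 features and 0 to 3 members in the ventral midbrain, 77 to 185 and 0 to 1 in the ventral hindbrain, and 20 to 90 and 0 to 2 for ventral against dorsal. Ranges that crossed 0 were -0.051 to 0.029 (Nkx2-1) and -0.34 to 0.34 (Nkx2-2) in the ventral midbrain change, -0.33 to 0.25 (Nkx2-2) in the ventral against dorsal change, -1.25 to 0.27 (Nkx6-1, E11.5) and -1.16 to 0.16 (Nkx2-2, E13.5) in forebrain against midbrain, and -0.51 to 0.16 (Nkx2-1, E11.5), -0.88 to 0.26 (Nkx6-1, E11.5) and -0.064 to 0.32 (Nkx6-1, E13.5) in hindbrain against midbrain.

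Replicate numbers were not taken as pairing: same-numbered pairs had a correlation over 0.1 in 10, 18, 21 and 12 of 30 pairs by stage from E11.5 on, with medians of 0.00176, 0.235, 0.179 and 0.0775, against -0.0112, -0.0985, -0.0794 and -0.0481 for other numbers. The replicate block kept 12 of 13 counts of features within 1.5 times. With it the 3 members called at E11.5 had the same differences at adjusted p between 0.0608 and 0.0742. The block could not be run for changes within a region, nor the planned exclusion for ventral against dorsal at E11.5 and E12.5, where every alar plate library would go. Depth limits Nkx2-9 and Nkx2-4 most, with 591 and 785 reads over 60 libraries.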

Other observations

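Of the other Nkx genes in the table, Nkx1-2 was the highest, at 20.6 RPKM in ventral hindbrain replicate 6 of E11.5. At E12.5 it had 1.59, 6.2 and 4.08 RPKM in the ventral forebrain, 4.58, 9.18 and 9.13 RPKM in the ventral hindbrain, and 0.06, 0.18 and 0 RPKM in the ventral midbrain. The ventral midbrain lay below both other ventral regions there. Nkx2-3 reached 2.31 RPKM, Nkx6-3 0.87 RPKM, Nkx3-2 0.521 RPKM and Nkx2-5 0.115 RPKM, and Nkx2-6 was listed at 0 in every library.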
